A study of Mus musculus with 16 samples.

Results

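The genes described here are 48 interferon-stimulated genes of the mouse, followed in the sciatic nerve after a crush. They were listed by name as receptors, transcription factors, sensors and effectors of the interferon response, with earlier results of these data known, and the rule itself uses no measured change. A gene was taken as measured where at least 1 probe set of the array carried its symbol alone, and where there were several the one of highest average signal stood for it. By this rule 45 of the 48 genes were measured, among 18193 genes in all, and all 45 passed the filter on dim genes that left 14545 genes for testing. Isg15, Oas1g and Ifi44 were not analysed here.

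RNA came from the distal stump of the sciatic nerve of 2 strains, hybridised to a whole-genome Affymetrix array. The WldS mutants were C57BL/6 OlaHsd-Wlds mice, in which cut axons degenerate slowly, and were studied uninjured (day 0) and at days 3, 7 and 14 after a crush of the left nerve at mid-thigh. Wild-type C57BL/6 mice were studied uninjured and at the same 3 later days, and all mice were 8 to 12 weeks old, with 56 per strain. A 4 mm piece reaching from 1 to 5 mm beyond the crush was collected, and pieces of a group were pooled before extraction. Each of the 8 groups had 2 arrays, called biological replicates in the labels and taken here as separate pools, and the number of mice in a pool is not given in the sources used here. The mutation is carried in every cell of the WldS mice, so nerve, infiltrating cells and the rest of the animal all differ between the strains. The labels set C57BL/6 OlaHsd-Wlds against C57BL/6, so the mutation and any difference of substrain cannot be told apart.

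Interferons are secreted proteins that bind receptors on the cell surface and signal through Jak kinases to Stat transcription factors. Type I interferons drive a complex that holds Stat2 and Irf9 onto a promoter element called the interferon-stimulated response element, while interferon gamma acts through another element, the gamma-activated site. The induced genes encode sensors of foreign nucleic acid, enzymes that block viral growth, GTPases that attack intracellular microbes, and the transcription factor Irf7, which feeds back on interferon production. After a nerve crush the axons beyond the lesion degenerate, Schwann cells change state and blood monocytes enter the stump.

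The promoters of these genes are shown first because the response element is the sequence that the family is known to share. RefSeq promoter windows of the GRCm38.p6 assembly were at hand for 36 of the 48 genes, of which 33 were measured, and the 250 bases before each annotated start were searched on both strands. The searched core of the interferon-stimulated response element was GAAANNGAAA, which reads TTTCNNTTTC on the other strand, and it was present in 15 of the 36 windows (41.7%), against 936 of 27025 genes in all (3.46%). For the gamma-activated site the core TTCNNNGAA, which is its own reverse complement, was present in 7 windows (19.4%), against 2197 genes in all (8.13%). A gene with several or overlapping matches was counted once. Bst2, Igtp and Oas1a held both cores. A match is a match of letters and was not tested for binding.

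The 6 sequences below cover the 150 bases before the start, 5′ to 3′ on the strand of the gene. Each match to the response element core is in capitals. Oas1a, Oas3, Rsad2 and Irgm1 were picked among measured genes holding the core, as those with the largest WldS rise at day 3. Their matches were thus fixed by the choice, and Ifit1 and Irf7 were added by name. Oas1a (chr5:120907526-120907675, minus strand) and Irgm1 (chr11:48871421-48871570, minus strand) each have a run of 3 GAAA units that holds 2 overlapping matches, at 20 and 14 bases before the start in Oas1a and at 30 and 24 in Irgm1. Ifit1 (chr19:34640739-34640888, plus strand) has 2 separate matches in the reverse orientation, 104 and 85 bases before the start. Oas3 (chr5:120777660-120777809, minus strand) and Rsad2 (chr12:26456453-26456602, minus strand) have 1 each, at 75 and 120 bases. Irf7 (chr7:141266425-141266574, minus strand), which changed most among the transcription factors, is shown beside them and holds no match in these letters.
Oas1a: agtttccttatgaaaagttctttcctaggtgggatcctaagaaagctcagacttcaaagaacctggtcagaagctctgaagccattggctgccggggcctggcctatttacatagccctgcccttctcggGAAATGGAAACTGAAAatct
Oas3: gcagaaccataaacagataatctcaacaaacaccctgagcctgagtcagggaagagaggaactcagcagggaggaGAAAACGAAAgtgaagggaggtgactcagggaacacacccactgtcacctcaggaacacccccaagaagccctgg
Rsad2: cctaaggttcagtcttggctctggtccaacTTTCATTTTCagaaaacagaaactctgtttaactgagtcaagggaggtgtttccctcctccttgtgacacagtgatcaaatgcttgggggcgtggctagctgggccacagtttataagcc
Irgm1: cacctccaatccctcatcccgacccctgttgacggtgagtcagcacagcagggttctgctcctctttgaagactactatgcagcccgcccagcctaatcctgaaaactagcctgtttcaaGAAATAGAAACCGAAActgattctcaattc
Ifit1: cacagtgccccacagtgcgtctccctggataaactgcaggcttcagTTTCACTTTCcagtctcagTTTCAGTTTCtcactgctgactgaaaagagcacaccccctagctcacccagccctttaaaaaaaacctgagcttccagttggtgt
Irf7: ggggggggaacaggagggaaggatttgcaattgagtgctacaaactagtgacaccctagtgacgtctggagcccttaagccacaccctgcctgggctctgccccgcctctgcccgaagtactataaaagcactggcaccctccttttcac

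The arrays carried the genotype of their labels: Nmnat1, which the fusion gene of WldS mice carries, ranged from 8.50 to 9.35 (median 8.84) over the 8 WldS arrays and from 5.42 to 6.34 (median 5.76) over the 8 C57BL/6 arrays. All values are log2 signals as deposited, and levels are not compared between genes. The Schwann cell factor Sox10 was between 11.02 and 12.25 in every array. A sign of RNA quality, the 3′ over 5′ index of the control probe sets, reached 3.81 for replicate 1 of the uninjured WldS group and 3.23 for replicate 2 of the WldS day 14 group, and lay between 1.63 and 2.46 in the other arrays. Differences were tested with limma over all 14545 genes, a gene was called at a Benjamini-Hochberg adjusted p below 0.05 within a contrast, and ± is a standard error for a difference and a standard deviation (n = 2) for a group mean.

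Before injury the strains differed in none of the 45 genes by limma's test, while 3 passed an unadjusted p below 0.05, and without WldS day 0 replicate 2 the test called 1 gene lower in WldS. Among all genes 0.0825% were called higher and 0.144% lower in uninjured WldS nerves. The largest gaps were negative, at -0.58 ± 0.15 for Ifit2 and -0.52 ± 0.15 for Irgm1, and neither was called. Both WldS arrays lay above both C57BL/6 arrays for 3 of the 45 genes, against 18.9% of all genes. The median strain difference over the 45 genes was -0.03, and -0.02 over all genes.

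**Figure D1:**
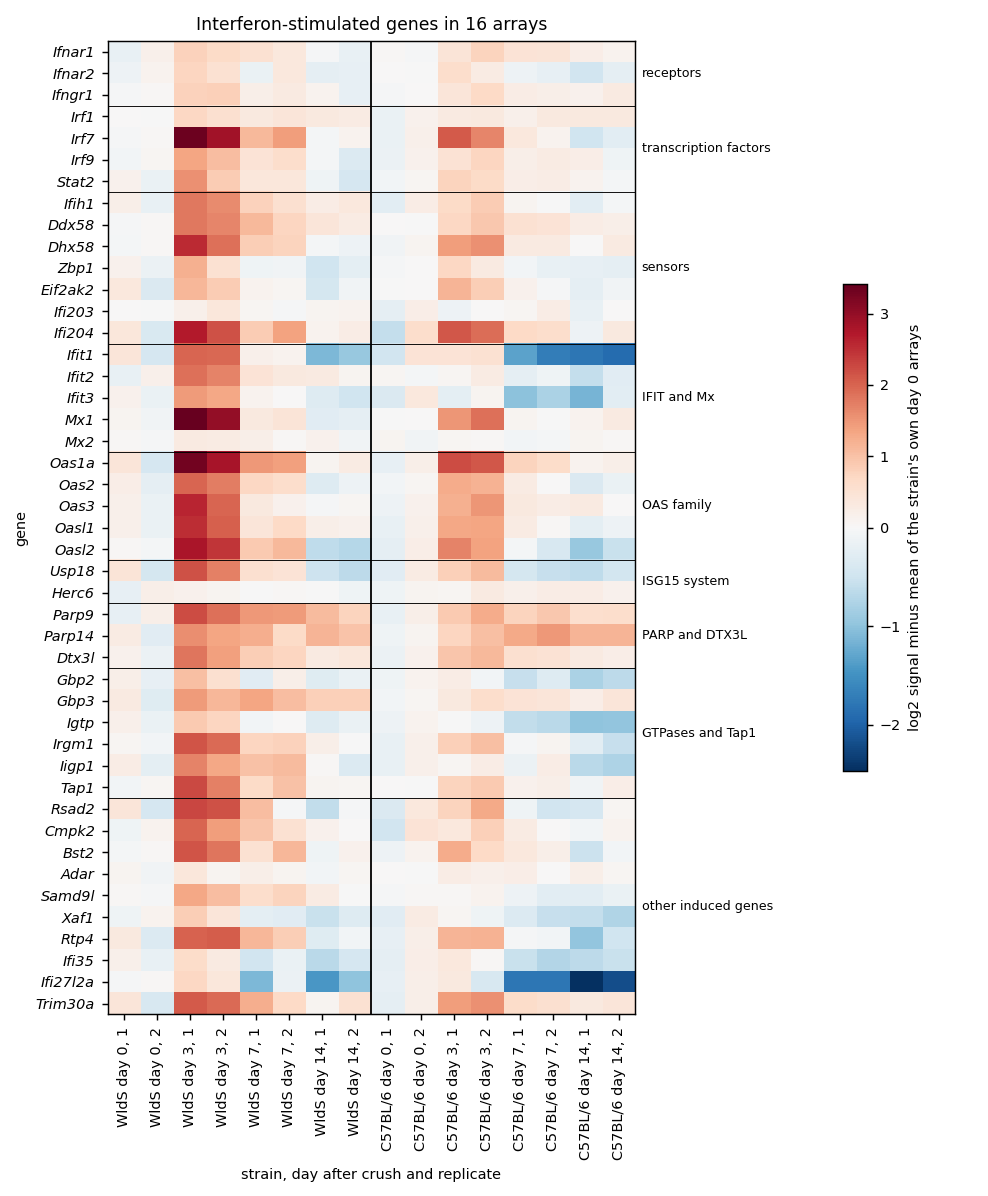
Log2 signal of the 45 measured genes in each array, minus the mean of the same strain's day 0 arrays, with genes in rows grouped by role and arrays in columns, WldS left of C57BL/6. Red is above and blue below day 0. The 2 WldS day 3 columns are the reddest, and the C57BL/6 day 7 and day 14 columns hold blue cells for Ifit1, Ifi27l2a and Igtp.

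At day 3 most interferon-stimulated genes were called higher than in uninjured nerve in both strains, and the median change was larger in WldS nerves. In whole stumps, fewer cells of a type and less RNA per cell cannot be told apart. In WldS nerves 39 of 45 were called higher and none lower, against 20.8% of all genes called higher and 15.2% called lower. C57BL/6 nerves had 29 called higher and none lower, against 22.6% and 18.4% of all genes. The median change of the 45 genes was 1.61 in WldS nerves and 0.71 in C57BL/6 nerves, where the medians of all genes were -0.02 and 0.02. Every gene called higher in C57BL/6 nerves was also called in WldS nerves. The 10 called in WldS nerves alone were Cmpk2, Gbp2, Gbp3, Ifit1, Ifit2, Ifit3, Igtp, Iigp1, Samd9l and Xaf1. A call in 1 strain alone is no test of a difference between strains. Cmpk2, Gbp2, Gbp3 and Xaf1 were not called in the interaction, the test of such a difference given next.

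The strains were then set against each other at day 3 directly. Of the 45 genes, 25 were called higher in WldS than in C57BL/6 nerves and none lower, against 4.82% and 4.62% of all genes, with a median difference of 0.75. Both WldS arrays lay above both C57BL/6 arrays for 40 of the 45, against 25.9% of all genes. The interaction, by how much the day 0 to day 3 change in WldS exceeded that in C57BL/6, was positive in 43 genes and called in 15, all positive, against 4.02% of all genes called positive and 2.15% called negative. These 15 were Ifit2, Mx1, Ifit1, Ifit3, Iigp1, Irf7, Tap1, Irgm1, Samd9l, Oasl2, Parp9, Oasl1, Ifih1, Ddx58 and Igtp.

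The number of calls rested in part on single arrays. No named difference changed sign when any array was left out, but these were differences already called, for which a reversal was unlikely from the start. Without WldS day 3 replicate 1, 9 genes were called higher in WldS than in C57BL/6 nerves at day 3, namely Ddx58, Ifit2, Igtp, Iigp1, Irf7, Mx1, Oasl1, Samd9l and Tap1, and the interaction was called in 6. The interaction was also called in 6 without C57BL/6 day 0 replicate 2, and they were the same 6 genes: Ddx58, Ifit2, Irgm1, Mx1, Samd9l and Tap1. Without both arrays of high 3′ over 5′ index, 17 interactions were called, 12 of them among the 15. The median interaction was 0.83 with all arrays and 0.63 without WldS day 3 replicate 1.

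**Figure D2:**
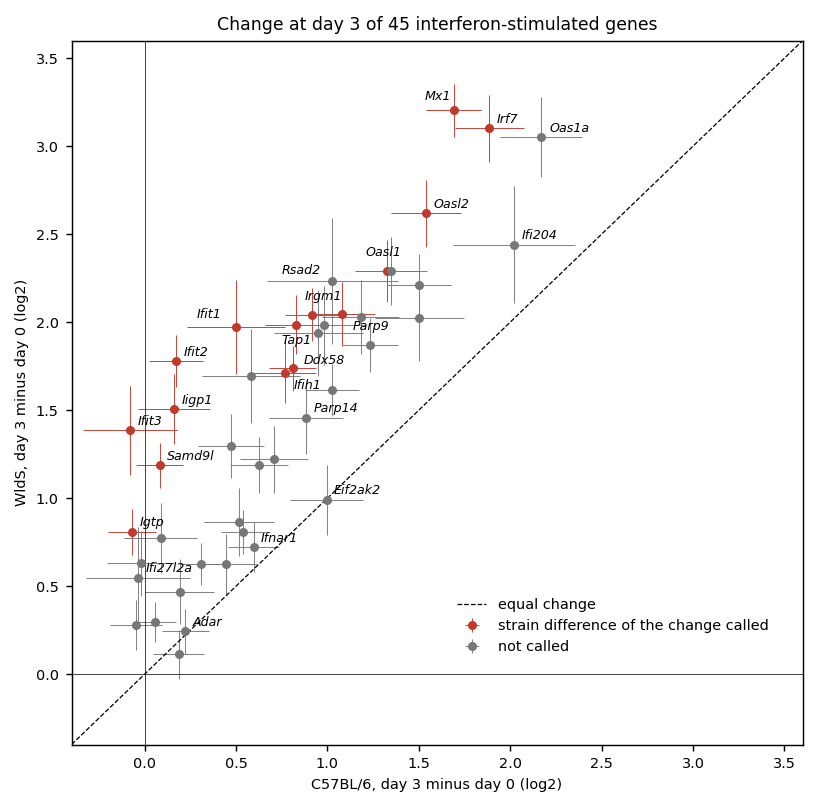
Change from day 0 to day 3 of each of the 45 genes in WldS (y axis, log2) against C57BL/6 (x axis, log2), with standard errors as bars and the dashed line at equal change. Red points are the 15 genes whose change differed between strains at an adjusted p below 0.05. Of the 45 points 43 lie above the line, and Eif2ak2 lies on it.

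The counts by role that follow stand against 20.8% of all genes called higher at day 3 in WldS and 22.6% in C57BL/6 nerves. Among the receptors, all 3 rose at day 3 in both strains. Ifnar1, a chain of the type I interferon receptor, was at 8.61 and 8.48 in the WldS day 3 arrays and 7.64 and 8.01 in the WldS day 0 arrays, and at 8.52 and 8.84 in C57BL/6 day 3 and 8.11 and 8.05 in C57BL/6 day 0. Its rise was 0.72 ± 0.14 in WldS (adjusted p = 0.00118) and 0.60 ± 0.14 in C57BL/6 (adjusted p = 0.00349), and in each strain both injured arrays lay above both uninjured ones. Ifnar2, the other chain, was at 10.36 and 10.14 in WldS day 3 and 9.49 and 9.76 in WldS day 0, and at 10.39 and 10.07 in C57BL/6 day 3 and 9.78 and 9.77 in C57BL/6 day 0. Its rise was 0.62 ± 0.17 in WldS and 0.45 ± 0.17 in C57BL/6, the C57BL/6 call being close to the threshold (adjusted p = 0.0477). Ifngr1, the chain that binds interferon gamma, was at 10.46 and 10.48 in WldS day 3 and 9.63 and 9.70 in WldS day 0, and at 10.18 and 10.44 in C57BL/6 day 3 and 9.74 and 9.79 in C57BL/6 day 0, a rise of 0.81 ± 0.13 and 0.54 ± 0.13. No receptor was called in the strain difference or the interaction at day 3, and the interaction was 0.13 ± 0.20 for Ifnar1, 0.18 ± 0.24 for Ifnar2 and 0.27 ± 0.18 for Ifngr1.

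All 4 transcription factors rose in both strains, and Irf7 rose most. Irf7, the interferon-induced amplifier of type I interferon production, was at 10.77 and 10.30 in WldS day 3 and 7.40 and 7.47 in WldS day 0, and at 9.55 and 9.13 in C57BL/6 day 3 and 7.29 and 7.62 in C57BL/6 day 0. The groups did not overlap in either strain, and both WldS day 3 arrays were above both C57BL/6 day 3 arrays. The rise was 3.10 ± 0.19 in WldS (8.59-fold, adjusted p = 3.74e-08) and 1.89 ± 0.19 in C57BL/6 (3.70-fold, adjusted p = 2.08e-06), and the interaction was 1.22 ± 0.27 (adjusted p = 0.015). Irf9, the DNA-binding partner of Stat2, was at 9.12 and 8.83 in WldS day 3 and 7.72 and 7.85 in WldS day 0, and at 8.29 and 8.53 in C57BL/6 day 3 and 7.64 and 7.93 in C57BL/6 day 0. It was 0.57 ± 0.16 higher in WldS than in C57BL/6 at day 3 (adjusted p = 0.0366), while its interaction of 0.57 ± 0.22 was not called (adjusted p = 0.174).

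Stat2 was at 7.91 and 7.21 in WldS day 3 and 6.50 and 6.19 in WldS day 0, and at 7.04 and 6.92 in C57BL/6 day 3 and 6.21 and 6.33 in C57BL/6 day 0. The 2 WldS day 3 arrays lay 0.70 apart, and the strain difference of 0.58 ± 0.19 was not called (adjusted p = 0.0736). Irf1, a factor that interferon gamma induces strongly, changed least of the 4, by 0.62 ± 0.12 in WldS and 0.31 ± 0.12 in C57BL/6 (adjusted p = 0.0486). Its arrays were at 10.43 and 10.26 in WldS day 3 and 9.73 and 9.70 in WldS day 0, and at 10.00 and 10.02 in C57BL/6 day 3 and 9.55 and 9.86 in C57BL/6 day 0. The interaction was 0.51 ± 0.27 for Stat2 and 0.31 ± 0.17 for Irf1, neither called.

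Of the 7 nucleic acid sensors, 6 rose in each strain, all but Ifi203. Ifi204, a sensor of DNA in the mouse HIN-200 family, was at 9.30 and 8.76 in WldS day 3 and 6.97 and 6.21 in WldS day 0, and at 8.38 and 8.17 in C57BL/6 day 3 and 5.66 and 6.85 in C57BL/6 day 0. Its uninjured arrays were far apart, and its rises of 2.44 ± 0.33 in WldS and 2.02 ± 0.33 in C57BL/6 were not called as different (interaction 0.42 ± 0.47, adjusted p = 0.672). Dhx58, or LGP2, which modulates the RNA helicase sensors, was at 9.47 and 8.79 in WldS day 3 and 6.88 and 6.96 in WldS day 0, and at 8.36 and 8.49 in C57BL/6 day 3 and 6.84 and 7.01 in C57BL/6 day 0. Dhx58 was 0.71 ± 0.17 higher in WldS than in C57BL/6 at day 3 (adjusted p = 0.0185), and its interaction of 0.71 ± 0.25 was not called (adjusted p = 0.119).

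The helicase sensors of viral RNA themselves were called in the interaction. Ddx58, or RIG-I, was at 10.24 and 10.12 in WldS day 3 and 8.41 and 8.47 in WldS day 0, and at 9.34 and 9.56 in C57BL/6 day 3 and 8.65 and 8.62 in C57BL/6 day 0, an interaction of 0.93 ± 0.18 (adjusted p = 0.00687). Ifih1, or MDA5, was at 11.24 and 11.05 in WldS day 3 and 9.62 and 9.25 in WldS day 0, and at 10.25 and 10.46 in C57BL/6 day 3 and 9.34 and 9.84 in C57BL/6 day 0, an interaction of 0.95 ± 0.24 (adjusted p = 0.0349). Eif2ak2, or PKR, the kinase that halts translation when it binds viral RNA, rose in both strains, by 0.99 ± 0.20 in WldS and by 1.00 ± 0.20 in C57BL/6. Zbp1, a sensor of nucleic acid in the left-handed form, rose by 0.86 ± 0.19 in WldS and 0.52 ± 0.19 in C57BL/6 (adjusted p = 0.0448).

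The IFIT and Mx effectors, which are antiviral proteins, differed between the strains in most members. At day 3 4 of the 5 rose in WldS nerves, against 20.8% of all genes called higher. In C57BL/6 nerves only Mx1 did, a count near the 22.6% of all genes called higher there. Ifit1, Ifit2 and Ifit3 were called in the interaction, and so was Mx1, whose day 0 levels were dim. Ifit1 was at 10.34 and 10.33 in WldS day 3 and 8.77 and 7.95 in WldS day 0, and at 9.05 and 9.11 in C57BL/6 day 3 and 8.11 and 9.05 in C57BL/6 day 0. The C57BL/6 day 3 arrays touched the higher uninjured one, and the change was 1.97 ± 0.27 in WldS (adjusted p = 5.78e-05) and 0.50 ± 0.27 in C57BL/6 (adjusted p = 0.16), an interaction of 1.47 ± 0.38 (adjusted p = 0.0341).

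Ifit2 was at 11.04 and 10.85 in WldS day 3 and 8.98 and 9.35 in WldS day 0, and at 9.82 and 10.01 in C57BL/6 day 3 and 9.79 and 9.69 in C57BL/6 day 0. Here the interaction at day 3 was 1.61 ± 0.21 (adjusted p = 0.000309), with a WldS level before injury that was the lower one. Against C57BL/6 nerves at day 3 it was 1.03 ± 0.15 higher in WldS (adjusted p = 0.000382). Ifit3 was at 11.22 and 11.08 in WldS day 3 and 9.92 and 9.61 in WldS day 0, and at 9.72 and 10.04 in C57BL/6 day 3 and 9.61 and 10.31 in C57BL/6 day 0, an interaction of 1.47 ± 0.36 (adjusted p = 0.0277).

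Mx1, a dynamin-like GTPase whose allele in most inbred laboratory mice is defective, was at 8.75 and 8.33 in WldS day 3 and 5.43 and 5.24 in WldS day 0, and at 6.71 and 7.07 in C57BL/6 day 3 and 5.20 in both C57BL/6 day 0 arrays. Its uninjured means lay below the dim level of 5.37, so the rises of 3.20 ± 0.15 in WldS and 1.69 ± 0.15 in C57BL/6 are lower bounds. Its interaction, 1.51 ± 0.21, is a difference of these bounds and no measured size, and the gene passed the dim filter through its day 3 levels. The direct strain difference at day 3 does not depend on that bound and was 1.65 ± 0.15 (adjusted p = 4.79e-06). Mx2, its relative, was not called in either strain, at 0.30 ± 0.11 in WldS (adjusted p = 0.0542) and 0.06 ± 0.11 in C57BL/6.

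**Figure D3:**
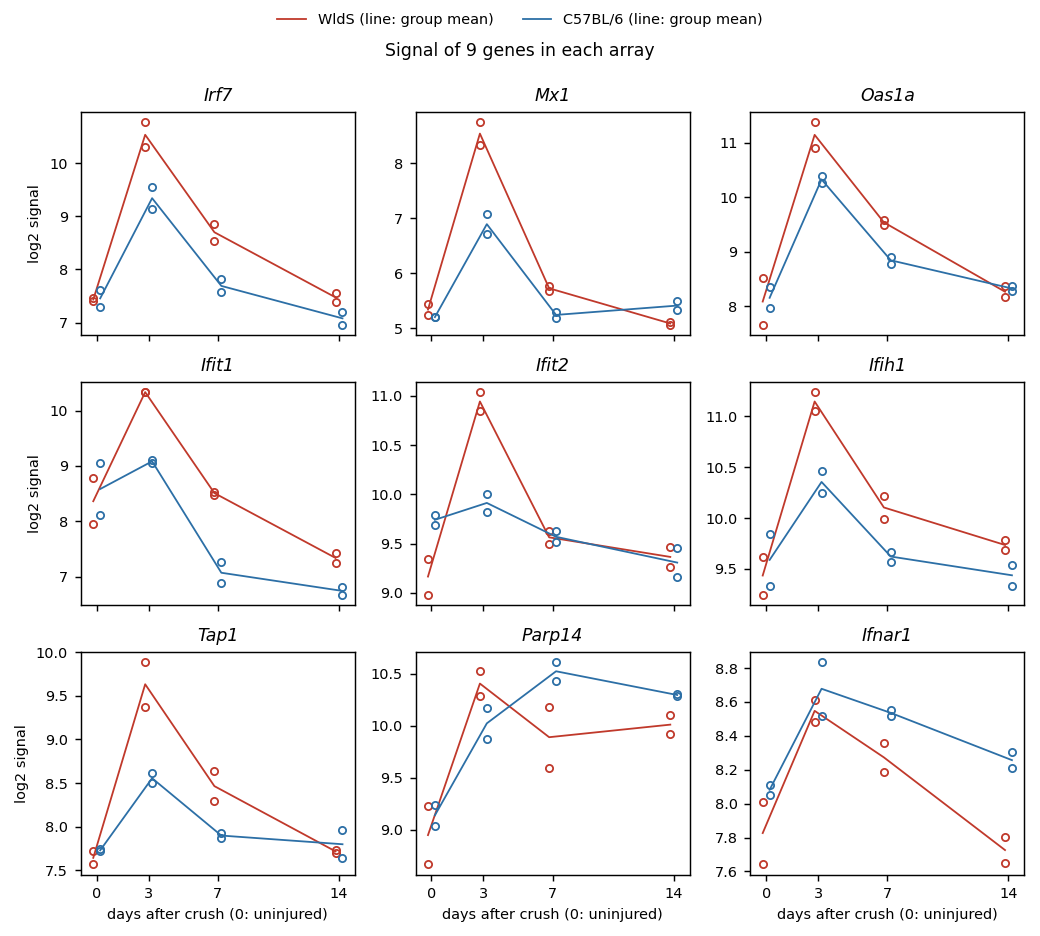
Log2 signal of 9 genes in each array (open circles) against days after the crush, with lines through the means of WldS (red) and C57BL/6 (blue), each panel on its own scale. Irf7, Mx1, Oas1a, Ifit1, Ifit2, Ifih1 and Tap1 peak at day 3 in WldS above C57BL/6, Parp14 peaks at day 7 in C57BL/6, and the Ifnar1 means at day 3 are 8.55 in WldS and 8.68 in C57BL/6.

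The OAS family is named for enzymes that make the short adenylate chains activating RNase L, though not every member does so. It rose in full at day 3: all 5 measured members were called in each strain, and all 5 were called higher in WldS than in C57BL/6 nerves. Without WldS day 3 replicate 1 the strain difference of Oasl1 was the 1 of these still called. Oas1a was at 11.38 and 10.91 in WldS day 3 and 8.51 and 7.67 in WldS day 0, and at 10.38 and 10.27 in C57BL/6 day 3 and 7.96 and 8.35 in C57BL/6 day 0. Its rise was 3.05 ± 0.23 in WldS (8.30-fold) and 2.17 ± 0.23 in C57BL/6 (4.49-fold), and its interaction of 0.89 ± 0.32 was not called (adjusted p = 0.135). Oasl2, a family member with ubiquitin-like domains, was at 10.92 and 10.57 in WldS day 3 and 8.17 and 8.08 in WldS day 0, and at 9.87 and 9.55 in C57BL/6 day 3 and 7.94 and 8.40 in C57BL/6 day 0. Its interaction was 1.08 ± 0.27 (adjusted p = 0.0298), and that of Oasl1, which in the mouse restrains translation of Irf7, was 0.96 ± 0.25 (adjusted p = 0.0349). Oas2 and Oas3 rose by 1.87 ± 0.15 and 2.29 ± 0.19 in WldS and by 1.23 ± 0.15 and 1.35 ± 0.19 in C57BL/6, with interactions that were not called. Probe sets of this family, of the Ifit genes and of the HIN-200 genes may share signal with close paralogs, which was not tested.

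In the system of Isg15, a ubiquitin-like protein joined to other proteins after interferon, 1 of the 2 measured genes rose. Usp18, which removes Isg15 and dampens the type I receptor, was at 9.71 and 9.25 in WldS day 3 and 7.97 and 7.11 in WldS day 0, and at 8.41 and 8.67 in C57BL/6 day 3 and 7.31 and 7.88 in C57BL/6 day 0. It was 0.93 ± 0.24 higher in WldS than in C57BL/6 at day 3 (adjusted p = 0.0252), and the interaction of 0.99 ± 0.34 was not called (adjusted p = 0.122). Herc6, the Isg15 ligase of the mouse, changed by 0.11 ± 0.14 in WldS and 0.19 ± 0.14 in C57BL/6 on the probe set used, and another of its probe sets behaved otherwise, as given further on.

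Parp9 and Dtx3l, which work as a complex in ADP-ribose and ubiquitin signalling, and their neighbour Parp14 all rose in both strains. Parp9 was at 10.67 and 10.33 in WldS day 3 and 8.26 and 8.65 in WldS day 0, and at 9.72 and 10.09 in C57BL/6 day 3 and 8.64 and 9.01 in C57BL/6 day 0, an interaction of 0.97 ± 0.26 (adjusted p = 0.0388). Dtx3l was at 10.47 and 10.04 in WldS day 3 and 8.78 and 8.50 in WldS day 0, and at 9.68 and 9.83 in C57BL/6 day 3 and 8.59 and 8.87 in C57BL/6 day 0. None of the 3 was called in the direct strain difference at day 3, where Parp9 was 0.60 ± 0.18 higher in WldS (adjusted p = 0.0552).

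The interferon-inducible GTPases and Tap1, the transporter that loads peptides for class I antigen presentation, all rose in WldS nerves. The count was 6 of 6 in WldS and 2 of 6 in C57BL/6 nerves, where 20.8% and 22.6% of all genes were called higher. Irgm1, a GTPase that controls the others, was at 10.36 and 10.17 in WldS day 3 and 8.29 and 8.15 in WldS day 0, and at 9.55 and 9.77 in C57BL/6 day 3 and 8.57 and 8.92 in C57BL/6 day 0. The strains did not overlap at day 3, and the interaction was 1.13 ± 0.21 (adjusted p = 0.00516). Its WldS level before injury was the lower one, and the direct strain difference at day 3 was 0.61. Tap1 was at 9.89 and 9.38 in WldS day 3 and 7.57 and 7.72 in WldS day 0, and at 8.50 and 8.61 in C57BL/6 day 3 and 7.74 and 7.72 in C57BL/6 day 0, an interaction of 1.16 ± 0.23 (adjusted p = 0.00835).

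Among the GTPases that did not rise in C57BL/6 nerves, Iigp1 was at 10.76 and 10.40 in WldS day 3 and 9.32 and 8.82 in WldS day 0, and at 9.38 and 9.58 in C57BL/6 day 3 and 9.14 and 9.49 in C57BL/6 day 0. Igtp was at 10.76 and 10.60 in WldS day 3 and 10.04 and 9.70 in WldS day 0, and at 9.88 and 9.77 in C57BL/6 day 3 and 9.77 and 10.01 in C57BL/6 day 0. For both genes the C57BL/6 day 3 arrays lay within or beside the uninjured range, and the interaction was 1.34 ± 0.28 for Iigp1 (adjusted p = 0.0106) and 0.88 ± 0.19 for Igtp (adjusted p = 0.0115). On the probe sets used, Gbp2 and Gbp3, guanylate-binding proteins, rose by 0.77 ± 0.20 and 1.30 ± 0.18 in WldS and changed by 0.09 ± 0.20 and 0.47 ± 0.18 in C57BL/6, with interactions that were not called.

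Of the 10 other induced genes, 7 rose in WldS nerves and 4 in C57BL/6 nerves. Rsad2, or viperin, an antiviral enzyme, was at 11.94 and 11.84 in WldS day 3 and 10.07 and 9.25 in WldS day 0, and at 10.58 and 11.09 in C57BL/6 day 3 and 9.45 and 10.17 in C57BL/6 day 0. With arrays this far apart its interaction of 1.21 ± 0.51 was not called (adjusted p = 0.202), while another of its probe sets was, as given further on. Rtp4, a chaperone that interferon induces, was at 11.88 and 11.93 in WldS day 3 and 10.22 and 9.53 in WldS day 0, and at 11.08 and 11.12 in C57BL/6 day 3 and 9.71 and 10.13 in C57BL/6 day 0. It was 0.80 ± 0.21 higher in WldS than in C57BL/6 at day 3 (adjusted p = 0.0266). Samd9l, an antiviral factor and tumour suppressor, was the member of this group called in the interaction, at 11.62 and 11.34 in WldS day 3 and 10.33 and 10.26 in WldS day 0, and at 10.72 and 10.81 in C57BL/6 day 3 and 10.65 and 10.72 in C57BL/6 day 0 (1.11 ± 0.18, adjusted p = 0.00186). The WldS level of Samd9l before injury was the lower one, and its direct strain difference at day 3 was 0.71. Bst2, or tetherin, Trim30a and Cmpk2 rose by 1.98 ± 0.23, 2.02 ± 0.24 and 1.69 ± 0.27 in WldS. In C57BL/6 nerves Bst2 and Trim30a rose by 0.98 ± 0.23 and 1.50 ± 0.24, and Cmpk2 changed by 0.58 ± 0.27 (adjusted p = 0.0997). Adar, the RNA editing enzyme, Ifi35 and Ifi27l2a were called in neither strain at day 3 on the probe sets used.

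**Figure D4:**
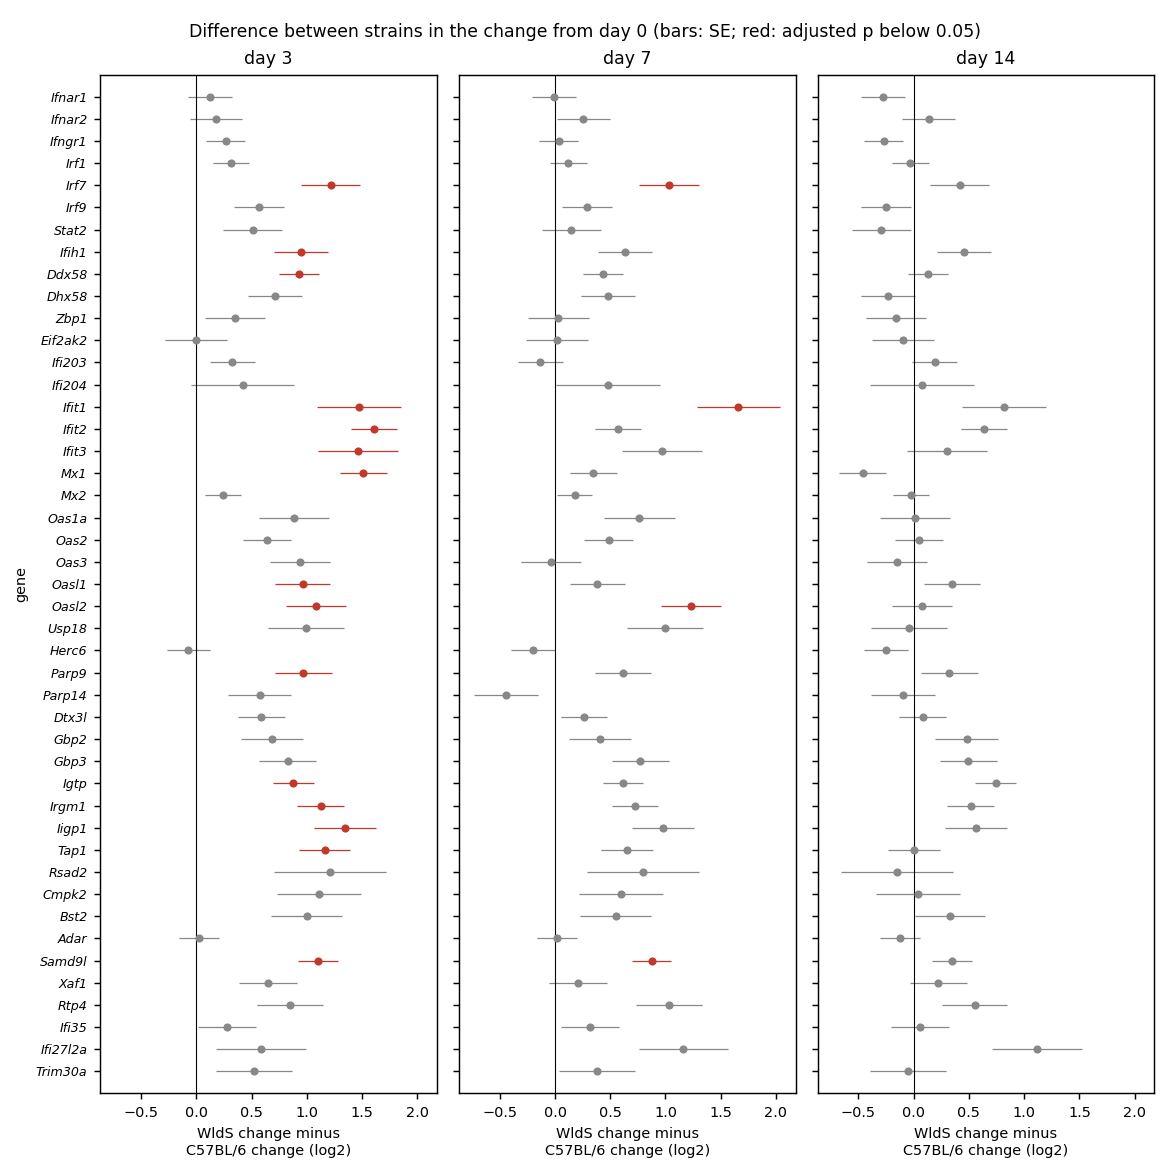
Change from day 0 in WldS minus the change in C57BL/6 for each of the 45 genes at days 3, 7 and 14 (x axis, log2), with standard errors as bars and calls at an adjusted p below 0.05 in red. At day 3 15 genes are called, at day 7 Irf7, Ifit1, Oasl2 and Samd9l, and at day 14 none.

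In time, day 3 was the peak. In WldS nerves the highest of the 4 group means was at day 3 for all 45 genes, and in C57BL/6 nerves for 37, the others being Ifit3, Igtp, Xaf1 and Ifi27l2a at day 0, Ifi203, Herc6 and Parp14 at day 7 and Irf1 at day 14. Between days 3 and 7 34 genes fell in WldS nerves, against 3.58% of all genes called lower and 3.04% higher, with a median change of -0.95. Over the same days 26 fell in C57BL/6 nerves, against 10.7% and 9.60% of all genes, with a median of -0.65. Leaving out replicate 1 of day 3 gave a WldS count of 15, and leaving out replicate 1 of day 7 gave 22. In C57BL/6 nerves it was 15 without day 3 replicate 1, and 17 and 13 without day 7 replicate 1 and replicate 2.

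At day 7 the median change of the family from day 0 was smaller than at day 3 in both strains. At day 3 that median was 1.6 in WldS and 0.7 in C57BL/6 nerves. Compared with day 0, 24 genes were called higher and none lower in WldS nerves, against 21.9% and 13.3% of all genes, with a median of 0.51. In C57BL/6 nerves 6 were called higher (Ddx58, Dtx3l, Ifnar1, Oas1a, Parp14 and Parp9) and 5 lower (Ifi27l2a, Ifi35, Ifit1, Ifit3 and Igtp), against 19.6% and 16.4% of all genes, with a median of 0.14. The C57BL/6 counts were 2 higher and 4 lower without day 7 replicate 1, and 3 and 4 without replicate 2. The C57BL/6 counts are near or below the share of all genes called, and are no result about the family.

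Directly compared at day 7, 10 genes were higher in WldS than in C57BL/6 nerves and none lower, against 3.86% and 2.97% of all genes. They were Ifi27l2a, Ifit1, Igtp, Iigp1, Irf7, Oas2, Oasl2, Rtp4, Samd9l and Usp18. Ifit1 was at 8.54 and 8.48 in WldS day 7 arrays and 7.26 and 6.88 in C57BL/6 day 7 arrays, Oasl2 at 9.03 and 9.24 against 8.13 and 7.77, and Irf7 at 8.54 and 8.86 against 7.81 and 7.57. The strains did not overlap for these 3, and across the family both WldS arrays lay above both C57BL/6 arrays for 34 genes, against 24.2% of all genes. The interaction was called in 4 genes, against 2.89% of all genes called positive and 1.22% negative: Ifit1 (1.66 ± 0.38), Oasl2 (1.23 ± 0.27), Irf7 (1.03 ± 0.27) and Samd9l (0.87 ± 0.18).

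These day 7 calls leaned on single arrays. The strain difference was called in 4 and 1 genes without C57BL/6 day 7 replicate 1 and replicate 2, and in 3 without WldS day 7 replicate 2. No interaction was called without C57BL/6 day 0 replicate 2, C57BL/6 day 7 replicate 2 or WldS day 7 replicate 2, and 9 were called without WldS day 0 replicate 1. The median interaction of the 45 genes was 0.48 with all arrays.

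By day 14 the median change of the 45 genes from day 0 was -0.05 in WldS and -0.15 in C57BL/6 nerves. WldS nerves had 3 genes called higher than at day 0 (Gbp3, Parp14 and Parp9) and 3 lower (Ifi27l2a, Ifit1 and Oasl2), against 12.7% and 8.56% of all genes. C57BL/6 nerves had 3 higher (Irf1, Parp14 and Parp9) and 12 lower, against 17.1% and 16.7% of all genes: Gbp2, Ifi27l2a, Ifi35, Ifit1, Ifit2, Ifit3, Igtp, Iigp1, Irgm1, Oasl2, Rtp4 and Xaf1. Without C57BL/6 day 0 replicate 2 the lower ones were 3, Ifi27l2a, Ifit1 and Igtp, and without day 14 replicate 1 or replicate 2 they were 6 and 8. In WldS nerves none was called lower without day 14 replicate 1. The WldS counts and the C57BL/6 count of higher genes are below the share of all genes called and are no result about the family. The same holds for the C57BL/6 count of lower genes without day 0 replicate 2. Without day 14 replicate 1 or replicate 2 that count is near the share of all genes.

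Ifi27l2a, a small mitochondrial protein, was the gene that fell furthest. In order of days 0, 3, 7 and 14 its means were 11.60 ± 0.04, 12.15 ± 0.23, 10.98 ± 0.69 and 10.39 ± 0.31 in WldS nerves, and 11.35 ± 0.30, 11.31 ± 0.51, 9.56 ± 0.01 and 9.02 ± 0.20 in C57BL/6 nerves. At day 14 it was 1.21 ± 0.29 below day 0 in WldS (adjusted p = 0.00792) and 2.33 ± 0.29 below in C57BL/6 (adjusted p = 2.74e-05). Ifit1, called lower at day 14 in both strains, averaged 8.36 ± 0.58, 10.34 ± 0.00, 8.51 ± 0.04 and 7.34 ± 0.13 in WldS and 8.58 ± 0.66, 9.08 ± 0.04, 7.07 ± 0.27 and 6.74 ± 0.09 in C57BL/6.

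Parp14 and Parp9 did the opposite and were called higher at every day after injury in both strains. Parp14 averaged 8.95 ± 0.40, 10.41 ± 0.17, 9.89 ± 0.42 and 10.01 ± 0.13 in WldS over days 0, 3, 7 and 14, and 9.14 ± 0.14, 10.02 ± 0.21, 10.52 ± 0.13 and 10.30 ± 0.01 in C57BL/6. Parp9 averaged 8.45 ± 0.28, 10.50 ± 0.24, 9.91 ± 0.02 and 9.37 ± 0.23 in WldS, and 8.83 ± 0.27, 9.91 ± 0.25, 9.67 ± 0.12 and 9.41 ± 0.02 in C57BL/6. At day 14 neither gene was called between the strains, with differences of -0.28 ± 0.20 for Parp14 and -0.05 ± 0.18 for Parp9.

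Between days 7 and 14 16 genes fell in WldS nerves, against 3.62% of all genes called lower and 1.61% higher, Oasl2 by 1.68 ± 0.19 and Oas1a by 1.27 ± 0.23. In C57BL/6 nerves Iigp1 fell (count 1, and 0 without any of the day 7 or day 14 C57BL/6 arrays, 2 without either WldS day 0 array), against 2.79% of all genes called lower and 2.48% higher. Leaving out replicate 2 of day 7 gave a WldS count of 8, and leaving out replicate 2 of day 14, an array of high 3′ over 5′ index, gave 5. Directly compared at day 14, Ifi27l2a (1.37 ± 0.29) and Igtp (0.72 ± 0.13) were higher in WldS than in C57BL/6 nerves and Ifnar1 (-0.53 ± 0.14) was lower, against 2.90% and 3.55% of all genes. This count was 1 without C57BL/6 day 14 replicate 1 and 0 without WldS day 14 replicate 2. By limma's test 0 interactions were called at day 14 (1 without either WldS day 0 array), where 6 genes passed an unadjusted p below 0.05, and 0.908% and 0.674% of all genes were called positive and negative. Both WldS arrays lay above both C57BL/6 arrays for 15 genes at day 14, against 30.4% of all genes.

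For 20 of the 45 genes the array holds more than 1 probe set, and some of the others read differently from the one used. Of 31 further probe sets 22 were above the dim level, and in WldS at day 3 21 of these had the sign of the one used, and 17 in the interaction. An Adar probe set other than the one used rose by 1.91 ± 0.14 in WldS and 1.05 ± 0.14 in C57BL/6, where the one used changed by 0.24 ± 0.13 and 0.22 ± 0.13. Another Herc6 probe set rose by 2.54 ± 0.20 in WldS and 1.35 ± 0.20 in C57BL/6, and another of Zbp1 by 2.17 ± 0.20 and 1.11 ± 0.20. Another Gbp2 probe set was 1.52 ± 0.25 above day 0 in WldS and changed by -0.11 ± 0.25 in C57BL/6. Both other Ifi35 probe sets were called higher in WldS, by 0.97 ± 0.20 and 0.71 ± 0.16. Adar, Herc6 and Ifi35 were thus uncalled in WldS at day 3 on the probe set used and called on another. With p-values adjusted over all probe sets, 5 of the further probe sets were called in the interaction at day 3. They were of Gbp2 (1.63 ± 0.35), Herc6 (1.19 ± 0.28), Rsad2 (1.18 ± 0.29), Adar (0.86 ± 0.19) and Ddx58 (0.76 ± 0.17).

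The ligands were near the detection level. Of 7 interferon genes measured, Ifng, Ifna4 and Ifna11 were dim. Ifng, the gene of interferon gamma, reached 4.70 at most. None of the 4 tested was called higher in either strain at day 3, and Ifna2 was called lower in WldS, by 0.39 ± 0.12 (adjusted p = 0.0243). Ifnb1, the gene of interferon beta, was at 5.79 and 5.87 in WldS day 3 and 6.04 and 6.10 in WldS day 0, and at 6.05 and 5.76 in C57BL/6 day 3 and 5.91 and 5.93 in C57BL/6 day 0, and it was called in neither strain.

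Other lists of pathway genes are given by the number called higher at day 3, except the feedback inhibitors, for which no count is given. Among all genes 20.8% were called higher at day 3 in WldS and 22.6% in C57BL/6 nerves. In the strain difference at day 3 4.82% were called higher in WldS, and in the interaction 4.02% were positive and 2.15% negative. How often these lists differ between strains was not tested against the 45 genes. Of 5 tested genes in a list of other interferon regulatory factors and a binding protein of Irf2, 4 rose in each strain at day 3. None of the 5 was called in the interaction. Irf8, a factor of the monocyte lineage, rose by 2.94 ± 0.20 in WldS and 2.49 ± 0.20 in C57BL/6, and Irf5 by 1.89 ± 0.17 and 1.57 ± 0.17. Of 13 upstream genes of nucleic acid sensing, 9 rose in WldS and 8 in C57BL/6 nerves. Tlr7, a receptor for RNA in endosomes, rose by 1.91 ± 0.17 and 1.17 ± 0.17, and Samhd1, a dNTP hydrolase, by 2.18 ± 0.16 and 1.27 ± 0.16. Samhd1 was the only one of the 13 called in the interaction (0.91 ± 0.22, adjusted p = 0.0268).

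For the immunoproteasome and class I pathway, 8 of 8 rose in WldS nerves and 4 of 8 in C57BL/6 nerves, and 3 were higher in WldS than in C57BL/6. Nlrc5, the transactivator of class I genes, rose by 2.05 ± 0.16 in WldS and 1.32 ± 0.16 in C57BL/6, and Psmb9, a subunit of the immunoproteasome, by 1.85 ± 0.19 and 0.96 ± 0.19. Tapbp, which bridges Tap1 to class I molecules, was the gene of this list called in the interaction (0.69 ± 0.19, adjusted p = 0.0444). Receptor and Jak-Stat partners were called higher in 4 of 7 genes in WldS and 3 of 7 in C57BL/6, with no interaction called. Among 5 feedback inhibitors, Socs3, an inhibitor of Jak signalling, rose by 1.17 ± 0.21 in WldS and 1.70 ± 0.21 in C57BL/6, and Pias1, an inhibitor in the Jak-Stat pathway, was called in the interaction (0.74 ± 0.21, adjusted p = 0.0472).

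**Figure D5:**
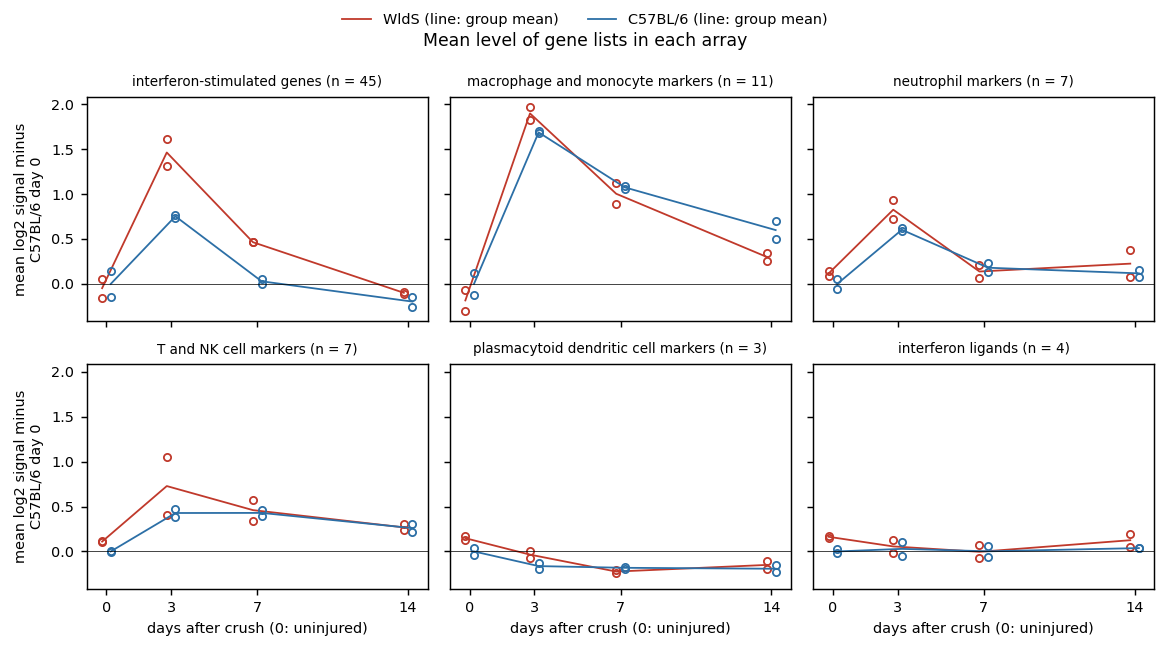
Mean log2 signal of each list in each array, minus the mean of the C57BL/6 day 0 arrays (open circles), against days after the crush, with lines through the means of WldS (red) and C57BL/6 (blue). At day 3 the interferon-stimulated genes lie at 1.61 and 1.31 in WldS and 0.74 and 0.77 in C57BL/6, and the macrophage and monocyte markers at 1.97 and 1.82 against 1.70 and 1.68.

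Markers of macrophages and monocytes, cells that enter the stump, also rose at day 3. Relative to C57BL/6 day 0, their mean lay above that of the family at days 3, 7 and 14 in both strains. Of 11 macrophage and monocyte markers, 10 rose at day 3 in each strain, Itgam by 3.23 in WldS and 3.24 in C57BL/6. Among all genes 20.8% were called higher at day 3 in WldS and 22.6% in C57BL/6. None of the 11 was called in the strain difference or the interaction at day 3. As a mean over the list, relative to the C57BL/6 day 0 mean, the markers stood at 1.97 and 1.82 in the WldS day 3 arrays and 1.70 and 1.68 in the C57BL/6 day 3 arrays. The same mean over the 45 interferon-stimulated genes was 1.61 and 1.31 in WldS and 0.74 and 0.77 in C57BL/6. In the day 7 arrays the markers stood at 0.89 and 1.12 in WldS and 1.09 and 1.06 in C57BL/6. The 45 genes were then at 0.46 and 0.46 in WldS and 0.06 and 0.00 in C57BL/6. For day 14 the markers were at 0.34 and 0.26 in WldS and 0.50 and 0.70 in C57BL/6. The 45 genes were then at -0.11 and -0.09 in WldS and -0.25 and -0.14 in C57BL/6. At day 7 Ccr2 and Cd163 were higher and Cd68 lower in WldS than in C57BL/6 nerves, 3 of the 11 markers. Among all genes 3.86% were called higher and 2.97% lower in that comparison.

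Markers of T and NK cells differed more between the 2 WldS day 3 arrays. Over 7 T and NK cell markers the mean was 1.05 and 0.40 in the WldS day 3 arrays and 0.47 and 0.38 in the C57BL/6 day 3 arrays, and Gzma, a granule protease of these cells, was called higher in WldS at day 3 (1.10, adjusted p = 0.0117). The array that stood highest, WldS day 3 replicate 1, is the one without which the strain difference of the interferon-stimulated genes at day 3 was called in 9. Among 7 neutrophil markers S100a9 was called higher in WldS at day 3 (0.73, adjusted p = 0.0456), and the list ranged from 0.72 to 0.93 in WldS and from 0.59 to 0.62 in C57BL/6. The part of these cells in the strain difference was not tested. Of 5 markers of plasmacytoid dendritic cells, which are known as producers of type I interferon, 3 were tested and none rose at day 3 while 1 fell in WldS, and Ccr9 and Pacsin1 were dim. All 4 Schwann cell markers tested fell at day 3 in both strains, and 2 of them were called higher in WldS than in C57BL/6 nerves. Among all genes 15.2% were called lower at day 3 in WldS and 18.4% in C57BL/6 nerves. In the strain difference at day 3 4.82% of all genes were called higher in WldS and 4.62% lower.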

How the data were processed

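The log2 signals were deposited by the authors as the value table of 16 Affymetrix arrays. Per the submitters' processing notes the tools were GCOS 1.4, Partek, limma and RMA, with no step assigned to any. The values were used as deposited. Probe sets with 1 gene symbol were kept, the one with the highest mean stood for a gene, and genes below the 30th percentile of probe-set means (5.37) were left out of testing. A group-means model of all 16 arrays was fitted with limma 3.58.1 in R 4.3.3 and p-values were adjusted over 14545 genes within each contrast. With 2 arrays per group, taken as separate pools, p-values measure the spread between arrays of a group. That spread was estimated over all 8 groups and drawn by limma toward a common value over genes. The code was tested on simulated data.

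The genes and lists were chosen with earlier results of these data known. Any of the 48 genes could be named. Values per array were given for receptors, transcription factors, the 2 genes of each other role with the largest called day 3 change, and genes called between strains. Up to 4 called genes were named per pathway list, and any marker.

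Samples of equal replicate number were not paired: over 28 pairs of groups their deviations correlated between -0.582 and 0.193 (median 0.006), with 5 above 0.1. Alternatives covered the dim filter, probe sets, normalization, the replicate block, the groups fitted and each array left out.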

Additional observations from a re-analysis of the deposited data

Results flagged for a closer look

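The change from day 0 differed between the strains, by the interaction term of limma's fit with an adjusted p below 0.05, in 15 genes at day 3 and 4 at day 7, each positive, so that the change in WldS nerves lay above that in C57BL/6 nerves. At day 3 the difference in change (log2) was 1.61 for Ifit2, 1.51 for Mx1, 1.47 for Ifit1, 1.47 for Ifit3, 1.34 for Iigp1, 1.22 for Irf7, 1.16 for Tap1 and 1.13 for Irgm1. It was 1.11 for Samd9l, 1.08 for Oasl2, 0.97 for Parp9, 0.96 for Oasl1, 0.95 for Ifih1, 0.93 for Ddx58 and 0.88 for Igtp. The Mx1 value rests on day 0 levels below the dim level in both strains, so it is a difference of 2 lower bounds and takes no place in an order. At day 7 it was 1.66 for Ifit1, where the WldS change was 0.15 and not called and the C57BL/6 change was a fall of -1.51, 1.23 for Oasl2, 1.03 for Irf7 and 0.87 for Samd9l.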

How the results depend on the processing

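Of 181 named differences, none reversed in 2896 refits without 1 array and 298 lost their call. In 1625 refits under other settings 93 lost it and 1 reversed: Ddx58 in C57BL/6 nerves at day 7 was -0.026 with the mean of all its probe sets. Of 153 counts recomputed under other settings, 140 stayed within 1.5 times. With only the groups of the contrast in the fit, which leaves fewer arrays to estimate the spread, the count was 14 for WldS at day 7, 9, 2 and 5 for the interaction at day 3, the interaction at day 7 and the strain difference at day 14, and 10, 21 and 8 for the steps from day 7 to 14 in C57BL/6, day 3 to 7 in WldS and day 7 to 14 in WldS. Without both arrays of high 3′ over 5′ index it was 8 for the interaction at day 7, 1 for the strain difference at day 14, 2 for the C57BL/6 step from day 7 to 14 and 8 for the same WldS step. With the mean of all probe sets 1 interaction was called at day 14. With the replicate block the counts were 40 for WldS and 27 for C57BL/6 at day 3, 24 for the strain difference and 14 for the interaction, and the C57BL/6 step from day 7 to 14 had 0, so the block moved no other count by over 1.5 times. The cause of these shifts was not tested. The 181 named differences were those already called with all arrays, so a change of sign was unlikely from the start.

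Without 1 array at a time the count ran from 35 to 40, 18 to 25 and 3 to 8 in WldS at days 3, 7 and 14, and from 22 to 30, 6 to 14 and 6 to 16 in C57BL/6. The strain difference ran from 0 to 1, 9 to 31, 1 to 15 and 0 to 3 at days 0, 3, 7 and 14, and the interaction from 6 to 18, 0 to 9 and 0 to 1 at days 3, 7 and 14. The steps from day 3 to 7 and day 7 to 14 ran from 15 to 35 and 5 to 18 in WldS, and from 13 to 27 and 0 to 2 in C57BL/6. With 2 arrays a group, 1 array decides much of a small count, and the number of arrays limits the precision.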
